A study of Mus musculus with 2 samples.

Results

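Small nucleolar RNA host genes are described here in single cells of omental tumors of mice grafted with KPCA ovarian cancer cells. The 8 members are Gas5, Snhg1, Snhg8, Snhg12, Zfas1, Epb41l4aos, 1110038B12Rik and 2410006H16Rik, of 32285 genes in the tables, and each was found by its symbol. They were selected on their own levels in these same libraries, as genes that lead one group of cancer barcodes. That the members vary together among those cells, and stand high in them, is therefore partly built into the choice and is given as a description, with no test.

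The tumors came from KPCA.FSTKO cells, a mouse line modelling high-grade serous ovarian cancer that lacks Fst, or from KPCA.FSTKO_hFSTL3 cells, the same line carrying a plasmid for human FSTL3 and kept under geneticin as 1 stable clone. Female C57BL/6J mice of 12 to 16 weeks received the cells into the peritoneum, and omental tumors were taken on day 10. Both groups lack Fst in the grafted cells, while the host cells keep it. Each group was 1 library made from 4 pooled tumors (n = 1), so nothing was tested between the libraries, and the human transgene is not part of the mouse reference. All 95% intervals cover counting error only, not differences between animals, clones or libraries, and cells and genes are not replicates.

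A small nucleolar RNA (snoRNA) guides the chemical modification of ribosomal RNA and of some other RNAs, and most mammalian snoRNAs are cut from the introns of a longer host transcript. Box C/D snoRNAs guide ribose methylation with the enzyme fibrillarin, and box H/ACA snoRNAs guide the conversion of uridine to pseudouridine with dyskerin. Many hosts encode no large protein, start with a run of pyrimidines that ribosomal protein mRNAs also carry, and have a spliced RNA that is removed by nonsense-mediated decay once ribosomes read its short frames. Gas5 took its name, growth arrest-specific 5, from its rise in cells that stop growing.

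The 8 genes spanned 33 of the 1507 snoRNA entries of the GENCODE vM21 annotation, and all 33 lay whole within an intron of a transcript of their host. Among the hosts with box C/D genes, Gas5 (ENSMUSG00000053332, GRCm38 chr1:161034422-161038539, plus strand) held 10, among them Snord47, Snord78, a pair of overlapping Snord80 entries and an entry named Mir5117. Snhg1 (ENSMUSG00000108414, chr19:8723475-8726443, plus strand) held 8, among them Snord22. Zfas1 (ENSMUSG00000074578, chr2:167062934-167065862, plus strand), which is read from the strand opposite Znfx1, held 3, among them Snord12. 1110038B12Rik (ENSMUSG00000092203, chr17:34950238-34952471, minus strand) held 2, among them Snord52, and 2410006H16Rik (ENSMUSG00000086841, chr11:62602877-62604807, plus strand) held 3, which are Snord49a, Snord49b and Snord65. Among the hosts with box H/ACA genes, Snhg8 (ENSMUSG00000104960, chr3:123507552-123508404, minus strand) held 1, Snora24. Snhg12 (ENSMUSG00000086290, chr4:132308623-132311024, plus strand) held 5, of which Snora16a, Snora44 and Snora61 carry H/ACA names and Snord99 a C/D name, and Snora16a is entered as an overlapping pair. These counts are of annotation entries, so a locus entered more than once counts each time. Epb41l4aos (ENSMUSG00000087590) held 1. Gas5 overlaps Zbtb37 on the other strand, and Zfas1 overlaps Gm27494 on its own strand. What these overlaps do to the counts was not tested.

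A pyrimidine run at the start is the sequence feature that host genes and ribosomal protein genes are known for. The RefSeq starts (GRCm38.p6) of 7 members are therefore shown, and that of Epb41l4aos is not reported here. Each line gives 40 bases from 5′ to 3′ on the gene's strand, 15 before the annotated start and 25 from it on. Capitals mark a C followed by at least 4 letters that are each C or T, within 10 letters of the start on either side. Gas5 has a pair of annotated starts, and 1110038B12Rik a pair that differ by 3 bases and hold the same run, of which the second is shown.
Gas5, start 1, chr1:161034586-161034625: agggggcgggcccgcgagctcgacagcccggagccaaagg
Gas5, start 2, chr1:161035151-161035190: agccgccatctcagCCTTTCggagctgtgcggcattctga
Snhg1, chr19:8723472-8723511: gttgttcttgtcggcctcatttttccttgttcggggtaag
Snhg8, chr3:123508312-123508351, minus strand: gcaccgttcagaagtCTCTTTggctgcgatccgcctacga
Snhg12, chr4:132308663-132308702: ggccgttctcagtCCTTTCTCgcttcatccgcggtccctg
Zfas1, chr2:167062919-167062958: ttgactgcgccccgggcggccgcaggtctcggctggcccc
1110038B12Rik, chr17:34952444-34952483, minus strand: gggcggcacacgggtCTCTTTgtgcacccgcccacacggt
2410006H16Rik, chr11:62602862-62602901: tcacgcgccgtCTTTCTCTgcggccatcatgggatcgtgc

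The run was present at a start of 5 of the 7 members shown (71.4%), and was not in this window of Snhg1 or Zfas1. Cytosolic ribosomal protein genes held it in 39 of 62 (62.9%), and all 27025 genes with a start held it in 34.4%. On the opposite strand of the same windows the shares were 28.6%, 24.2% and 38.5%. A match of letters in a window is a description and not evidence of how a gene is controlled.

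The files hold unique molecular identifiers (UMIs), each standing for 1 captured RNA molecule, and levels are given as CPM, the UMIs of a gene in a class scaled to the same total of UMIs in every class. The KPCA.FSTKO library held 7582 barcodes with 168214773 UMIs, and the KPCA.FSTKO_hFSTL3 library 4244 barcodes with 80391504 UMIs, with 12 barcode sequences in common. Barcodes counted as cancer cells when the keratins Krt7, Krt8, Krt18 and Krt19 made up at least 0.1% of their UMIs and Ptprc, the leukocyte surface protein CD45, had none. That gate held 3589 of 6777 filtered barcodes (53.0%) in KPCA.FSTKO and 2274 of 4041 (56.3%) in KPCA.FSTKO_hFSTL3. Epcam, an epithelial adhesion protein, was near 0 in it at 5.92 and 1.20 CPM, and Pax8, a transcription factor of fallopian tube epithelium, stood at 9.13 and 15.6 CPM. Fst reads in the cancer gate (5.78 and 16.1 CPM) check nothing, since the deleted part of the gene is not given and the reads come from the 3′ end.

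The KPCA.FSTKO_hFSTL3 library stood apart from its partner. Of its filtered barcodes 86.9% carried at least 0.3% UMIs of pancreatic acinar genes, against 1.42% in KPCA.FSTKO. Within the cancer gate only 248 of its 2274 barcodes (10.9%) lay under that share. The 248 had a median of 37917 UMIs and held 533 CPM of acinar genes, against 26238 UMIs and 34.3 CPM in KPCA.FSTKO cells under the same share. The 2026 others had a median of 11532 UMIs. Their median mitochondrial share was 11.6%, against 3.596% in the 248 and 3.37% in KPCA.FSTKO. They also carried more RNA of other cells: among those with at least 5000 UMIs, the bottom 10% and the top 10% by the member sum both held over 6 UMIs of macrophage markers per 5000, at 6.59 and 7.17, whereas the corresponding groups of KPCA.FSTKO held 0.315 and 0.149. Levels of the members in its cancer gate, their spread and their co-variation are therefore given for the whole gate and for the 248 barcodes, called low-acinar (the others high-acinar), and the part of this RNA in the results was not tested. Whether a high-acinar barcode holds 1 intact cell was not tested either, and its values are those of a barcode.

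In cancer cells the summed level of the 8 genes was close between the libraries, and no single member moved by 1.5-fold. The sum stood at 2520 CPM in KPCA.FSTKO and at 2310 CPM in KPCA.FSTKO_hFSTL3, a ratio of 0.917 (95% interval 0.910 to 0.924) that turned to 1.04 when the median log2 ratio of all genes, -0.18, was set to 0. In low-acinar cells of the latter it was 2481 CPM, a ratio of 0.985 (0.972 to 0.999) to the low-acinar cells of KPCA.FSTKO, and in the high-acinar barcodes 2248 CPM. Of the 8 members, 0 passed 1.5-fold in either direction, where 13.5% of 13612 genes with at least 100 UMIs were at least 1.5-fold higher and 21.4% lower. Among low-acinar cells it was again 0 of 8, where 11.5% of genes were higher and 12.8% lower. The median log2 ratio of the members was -0.11 beside -0.18 over all genes, and 0.07 beside 0.01 among low-acinar cells.

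Among the hosts of box C/D genes, Gas5 was lower in KPCA.FSTKO_hFSTL3, at 777 CPM against 1013, a ratio of 0.767 (0.757 to 0.778), and at 816 CPM in low-acinar cells, a ratio of 0.806 (0.788 to 0.825). Snhg1 went the other way, with 226 CPM against 164, a ratio of 1.38 (1.34 to 1.42), and 237 CPM in low-acinar cells, a ratio of 1.45 (1.38 to 1.51). 2410006H16Rik was also higher, at 603 CPM against 511, and kept a ratio of 1.17 (1.14 to 1.21) in low-acinar cells. These 3 genes kept their direction within the low-acinar cells.

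Zfas1 and 1110038B12Rik stood nearer to KPCA.FSTKO in low-acinar cells than over the whole gate. Zfas1 stood at 178 CPM against 218 over the whole gate, a ratio of 0.819 (0.796 to 0.843), and at 227 CPM in low-acinar cells, a ratio of 1.04 (0.998 to 1.09). 1110038B12Rik was at 179 CPM against 269, a ratio of 0.667 (0.648 to 0.685) that lies at the edge of the 1.5-fold rule, and at 241 CPM in low-acinar cells, a ratio of 0.894 (0.856 to 0.934). In high-acinar barcodes alone its ratio was 0.583, past the rule.

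Of the hosts with box H/ACA genes, Snhg8 had 178 CPM in KPCA.FSTKO and 180 CPM in KPCA.FSTKO_hFSTL3, a ratio of 1.01 (0.982 to 1.04), and a ratio of 1.05 (0.999 to 1.10) in low-acinar cells. Snhg12 had 98.4 and 109 CPM, a ratio of 1.11 (1.07 to 1.15), and a ratio of 1.15 (1.08 to 1.22) in low-acinar cells. Epb41l4aos, whose name places it antisense to the gene of a cytoskeletal protein, had 68.6 and 57.4 CPM, a ratio of 0.836 (0.795 to 0.879), and a ratio of 0.897 (0.822 to 0.976) in low-acinar cells. With 1 library per group, none of these ratios can be set against a spread between tumors.

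**Figure D1:**
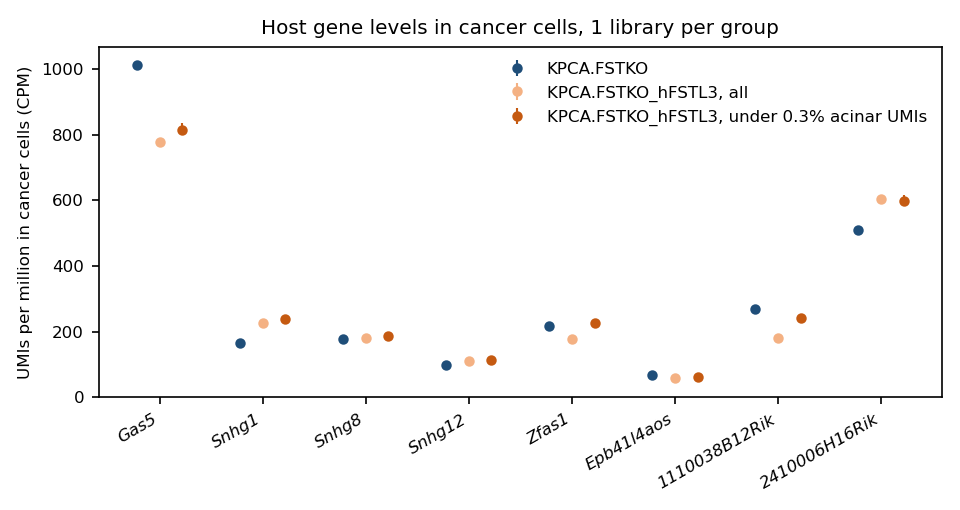
Level of each host gene in cancer cells in CPM, with 95% counting intervals as bars (often smaller than the point), for KPCA.FSTKO, for the whole gate of KPCA.FSTKO_hFSTL3 and for its cells under 0.3% acinar UMIs, 1 library per group. Gas5 is lower in both sets of the second library (777 and 816 against 1013 CPM), Snhg1 and 2410006H16Rik are higher in both, and Zfas1 and 1110038B12Rik are lower over the whole gate and nearer to KPCA.FSTKO in low-acinar cells.

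Other genes of the pathway and stress response genes were counted in the same comparison. Of all genes, 13.5% were at least 1.5-fold higher and 21.4% lower over the whole gate, and 11.5% and 12.8% in low-acinar cells. Of 15 further non-coding host genes, 14 had enough UMIs, of which 5 were at least 1.5-fold higher in KPCA.FSTKO_hFSTL3 and 1 lower, and in low-acinar cells 3 were higher and 2 lower of 13. Snhg15 was higher in both sets, at ratios of 2.07 and 1.77, and Snhg3 lower in both, at 0.587 and 0.503. Snhg18 turned around, from 4.08 over the whole gate to 0.462 in low-acinar cells. Of 11 protein-coding genes that host snoRNAs, 0 were higher and 1 was lower, Nop56, a core protein of box C/D particles, at 0.628, which came to 0.988 in low-acinar cells. Of 8 stress response genes, 4 were at least 1.5-fold higher and 0 lower over the whole gate, and 7 were higher and 0 lower in low-acinar cells, among them Atf4, the transcription factor of the integrated stress response (2.10 and 2.27), and its target Chac1, which breaks down glutathione (2.70 and 3.63).

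Within the KPCA.FSTKO library the host genes varied widely from one cancer cell to the next. Each of 2887 cells with at least 5000 UMIs was drawn down at random to 5000, so that depth could not set the number found. The sum of the 8 genes then had a median of 9 UMIs per cell, with 2 at the 5th percentile, 35 at the 95th and 109 in the highest cell. At most 5 UMIs were found in 30.0% of cells and at least 30 in 7.55%. The variance of the sum was 10.0 times its mean, where counting alone gives a value near 1.

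Spread above counting was found in every member of this library, but not to the same degree. The variance of Gas5 was 5.47 times its mean, that of 2410006H16Rik 3.69 times, that of Snhg1 2.27 times and that of Zfas1 2.13 times. These 4 of 8 members passed a variance of 2 times the mean, where 11.6% of 3148 genes of enough UMIs did. Epb41l4aos, one of the sparsest members, had the lowest value, 1.29, beside a median of 1.18 over those genes. Since the members were chosen for marking a group of these cells, nothing is read from this count.

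The low-acinar cells of KPCA.FSTKO_hFSTL3 spread like those of KPCA.FSTKO, and the high-acinar barcodes hardly spread at all. In 225 low-acinar cells of enough depth the sum had a median of 9, a 95th percentile of 31, a highest cell of 82 and a variance of 9.86 times the mean. In 1361 high-acinar barcodes the median was 11, the highest cell held 27, 4.63% had at most 5 UMIs and 0 had at least 30. Their variance was 1.14 times the mean for the sum and between 0.945 and 1.12 times for the single members, close to the median of all genes in the same barcodes, 1.02. Over the whole gate of 1586 cells the variance of the sum was 2.49 times its mean. Of the 8 members, 4 passed a variance of 2 times the mean in low-acinar cells (11% of genes did) and 0 over the whole gate (2.67% of genes did).

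**Figure D2:**
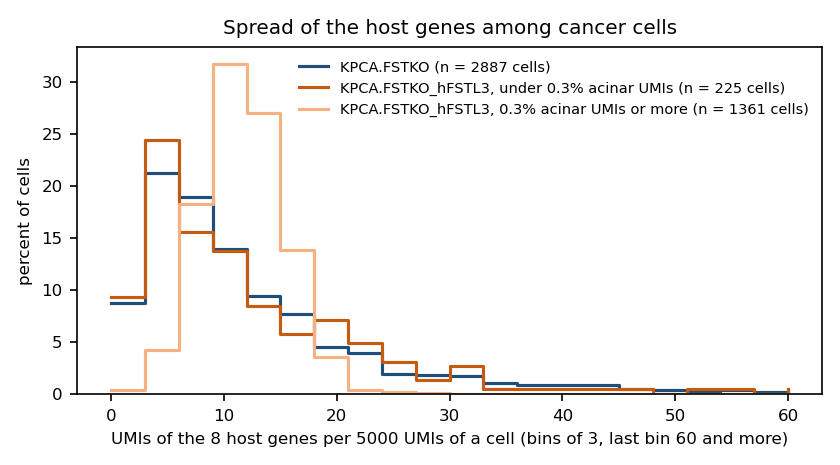
Percent of cancer cells (vertical axis) by the number of UMIs of the 8 host genes per 5000 UMIs of a cell (horizontal axis, bins of 3, the last holding 60 and more). KPCA.FSTKO and the low-acinar cells of KPCA.FSTKO_hFSTL3 both peak at a few UMIs and reach a long tail, while the high-acinar barcodes gather around their median of 11 and end at 27.

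The members varied together across cells. Each gene in turn was left out, the cells were ranked by the sum of the other 7, and the gene's own UMIs were compared between the top 10% (288 cells) and the bottom 10% (289 cells). In KPCA.FSTKO the mean of Gas5 went from 1.66 UMIs per cell in the bottom group to 13.4 in the top group, a ratio of 8.10 (7.37 to 8.93). 2410006H16Rik went from 0.699 to 7.82, a ratio of 11.2 (9.69 to 12.99), and Zfas1 from 0.360 to 3.27, a ratio of 9.10 (7.42 to 11.3). These hosts of box C/D genes showed wide gaps between the groups, and so did the H/ACA host Snhg12, which went from 0.104 to 1.81, a ratio of 17.4 (12.04 to 26.0).

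The other members had smaller ratios in the same direction. 1110038B12Rik went from 0.567 to 3.46 UMIs per cell, a ratio of 6.10 (5.17 to 7.24), Snhg1 from 0.363 to 1.98, a ratio of 5.44 (4.41 to 6.76), Epb41l4aos from 0.156 to 0.795, a ratio of 5.11 (3.70 to 7.196), and Snhg8 from 0.426 to 1.95, a ratio of 4.59 (3.77 to 5.63). Pooled over the 8 genes the ratio was 7.97 (7.51 to 8.46). When cells were ranked by all 8, 4.54% of 4319 genes outside the list were at least 1.5-fold higher in the top group and 41.6% at least 1.5-fold lower. The ranking uses the levels that chose the members, and nothing is read from their count of 8 of 8 above 1.5-fold.

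The same ranking gave 2 different pictures in KPCA.FSTKO_hFSTL3. In the low-acinar cells, split in 4 groups because there were only 225, the pooled ratio of the top 56 to the bottom 57 cells was 5.10 (4.47 to 5.85), with members between 3.31 for 1110038B12Rik and 9.89 for Snhg12, and the same split of KPCA.FSTKO gave 4.79. Gas5 went from 1.51 to 7.95 UMIs per cell in that split and 2410006H16Rik from 1.05 to 5.86. In the high-acinar barcodes the pooled ratio of the top to the bottom 10% was 1.10 (1.02 to 1.18), with Gas5 at 3.54 and 3.87 UMIs per cell. Over the whole gate, which mixes both, it was 2.05 (1.92 to 2.20). Among genes outside the list, 1.69% were at least 1.5-fold higher and 15.1% lower in the top group of the whole gate, and 15.6% and 21.2% in that of the low-acinar cells.

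**Figure D3:**
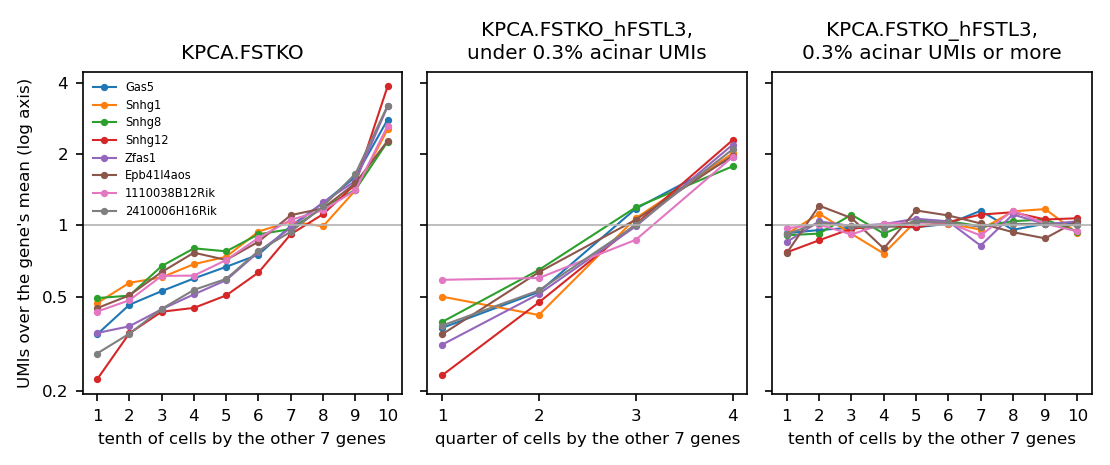
UMIs of each host gene over its own mean (log axis) in groups of cancer cells ordered by the sum of the other 7 genes, in 10 groups for KPCA.FSTKO, 4 for the low-acinar and 10 for the high-acinar barcodes of KPCA.FSTKO_hFSTL3. All 8 lines climb in KPCA.FSTKO and in low-acinar cells, and lie near 1 from the first group to the last in high-acinar barcodes.

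Pairs of members showed the same. Over 2887 cells of KPCA.FSTKO the 28 pairs had a mean Pearson correlation of 0.277 on log UMIs, from 0.0908 for Snhg1 with Epb41l4aos to 0.561 for Gas5 with 2410006H16Rik. Over 225 low-acinar cells of the other library the mean was 0.327, and Gas5 with 2410006H16Rik again had the highest value, 0.590. Over its whole gate of 1586 cells it was 0.0783 and over the 1361 high-acinar barcodes 0.0145. The cells of each value share 1 library and 1 depth after thinning, and sparse counts hold the correlations of the rarer genes down.

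The genes whose level followed the sum of the 8 most closely were mainly those of the ribosome. Among 7444 genes ranked by the smaller of their correlations with the sum over the cancer gates of both libraries, the leading genes included Fau, Rplp1, Rpl23, Rps24, Tpt1, Rps10, Rpl32, Rpl34 and Rpl26. All of these but Tpt1 encode ribosomal proteins, and Tpt1 encodes a growth-related protein and hosts a snoRNA. Fau had a correlation of 0.49 over 2887 cells of KPCA.FSTKO and 0.38 over 1586 of KPCA.FSTKO_hFSTL3, and Rplp1 had 0.47 and 0.36. In the 225 low-acinar cells both had 0.62. The median over all ranked genes was -0.0409 and -0.0201.

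Along the ranking by the 8 genes, ribosomal protein genes were higher as well, by less than the 8 members. The members were chosen on these cells, so that gap is partly built in and nothing is read from it. In KPCA.FSTKO 76 of 79 had at least 1.5 times the UMIs in the top 10% of cells as in the bottom 10%, with a median ratio of 1.96, and the median of all 4319 genes was 0.727. In low-acinar cells of the other library, 67 of 78 were as much higher in the top of 4 groups, with a median of 1.79. Over its whole gate it was 0 of 79, with a median of 1.25, and in its high-acinar barcodes 0 of 79, with a median of 1.01. Of all genes outside the list, 4.54% were as much higher in KPCA.FSTKO and 15.6% in the low-acinar cells. The share was only 1.69% over the whole gate and 0.942% in the high-acinar barcodes, so the counts of 0 lie near it. Where only the middle 50% of KPCA.FSTKO cells by ribosomal protein share were ranked, the pooled ratio of the members was 4.41, beside 7.97 over all cells, and the same setting over the whole gate of KPCA.FSTKO_hFSTL3 gave 1.15, beside 2.05.

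Some further host genes were higher with the members in KPCA.FSTKO. Of 15 other non-coding hosts, 4 had enough UMIs in KPCA.FSTKO, and 3 were at least 1.5-fold higher in the top group, Snhg5 at 5.65, Snhg6 at 3.09 and Snhg3 at 1.63, while Snhg9 stood at 1.36. Of 11 protein-coding hosts 5 were, among them Eef1b2 and Eef2, translation elongation factors, at 2.23 and 1.67, and Rack1, a protein of the small ribosomal subunit, at 1.95. In low-acinar cells of the other library 3 of 8 protein-coding hosts were, and over its whole gate 0 of 11, with Snhg6, the 1 further non-coding host of enough UMIs there, at 1.40. Of all genes outside the list, 4.54% were at least 1.5-fold higher in KPCA.FSTKO, 15.6% in those low-acinar cells and 1.69% over the whole gate. In KPCA.FSTKO the proteins that snoRNAs work with did not share a direction: of 8 genes 1 was higher, Gar1 of H/ACA particles at 1.65, and 1 lower, Dkc1, which encodes dyskerin, at 0.659. Of 6 nonsense-mediated decay factors, 0 were higher and 4 lower, Smg6 at 0.455, Smg1 at 0.493, Upf2 at 0.537 and Upf3b at 0.590, in a ranking where 41.6% of all genes were lower.

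All 5 stress response genes with enough UMIs were at least 1.5-fold higher in the top group of KPCA.FSTKO, where 4.54% of all genes were. Ddit3, a transcription factor of the unfolded protein response, had a ratio of 3.29, Asns, asparagine synthetase, 3.20, Atf5 3.18, Gadd45b 1.78 and Atf4 1.78. In low-acinar cells of the other library only Atf4 could be measured, at 1.74. Over the whole gate Asns was at 1.68 and Gadd45b at 0.256. The measured nuclear and proliferation genes had ratios under 1 in KPCA.FSTKO: Kcnq1ot1 at 0.359, Neat1 at 0.508 and Malat1 at 0.824, and Mki67, which marks dividing cells, at 0.201, Top2a at 0.481, Cdk1 at 0.701 and Pcna at 0.850, beside the median of 0.727 over all genes.

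Other properties of the cells moved along the same ranking. From the bottom to the top 10% of KPCA.FSTKO cells the median UMI number before thinning went from 27004 to 33710, the mitochondrial share from 3.75% to 3.12%, and the number of genes found in 5000 UMIs from 2219 to 1799. Marker UMIs of fibroblasts, per 5000, fell from 5.00 to 1.12, with 8 of 8 markers seen in both groups. Erythroid marker UMIs went from 11.2 to 0.0278, macrophage markers from 0.315 to 0.149, and the 4 keratins of the gate from 16.9 to 14.0. All these marker values are means over the cells of a group. Over the whole KPCA.FSTKO gate erythroid markers had a median of 0 CPM beside 267 CPM pooled. A few barcodes may therefore carry the mean of 11.2, which was not tested. T and NK cell and B cell markers were at 0 in both groups. In low-acinar cells of the other library, fibroblast marker UMIs also went down from the bottom to the top of 4 groups, from 7.21 to 1.25, whereas macrophage markers went from 0.193 to 0.964 and erythroid markers from 1.28 to 3.18. The part of these differences in the ranking was not tested. The pooled ratio of the members was 8.14 without the cells that had at least 3 markers of a host class at 3 times their general level. That left 2828 of 2887 cells, and cells with fewer host marker UMIs stayed in. The ratio was 7.97 with all cells and 7.91 among the middle 50% by Malat1 share.

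**Figure D4:**
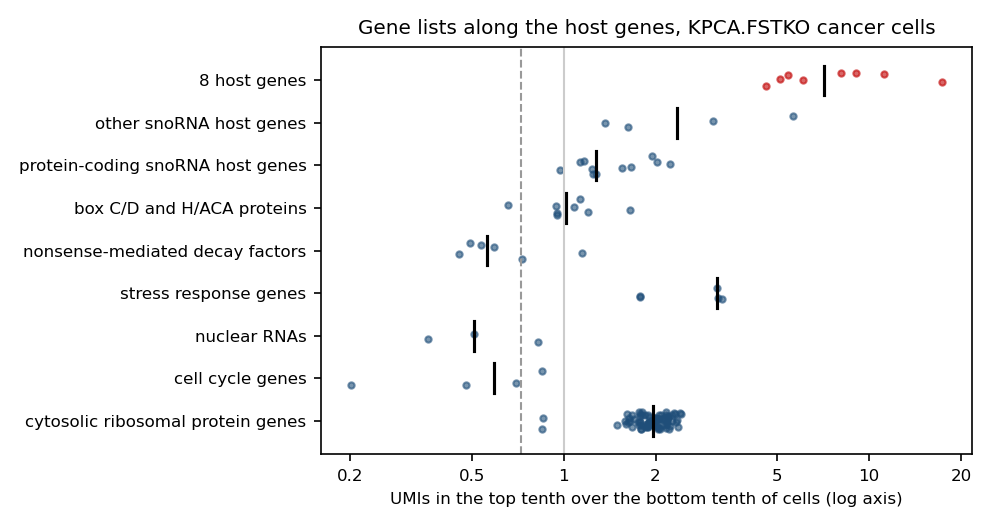
Ratio of UMIs between the top and the bottom 10% of KPCA.FSTKO cancer cells ranked by the host genes (log axis), 1 point per gene and a bar at the median of each list, with the 8 host genes (red) each ranked by the other 7. The dashed line is the median of all genes, 0.727, and ribosomal protein genes gather near 1.96, below all of the 8 host genes. Those 8 were chosen on these cells, so the gap is partly built in.

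Among host cells all 8 genes were found, at lower summed levels than in cancer cells. Classes were named where at least 3 of their listed markers were present at 3 times their general level, and shares or levels of a class come from 1 library. In KPCA.FSTKO the sum stood at 1499 CPM (1398 to 1605) in 78 T and NK cells, at 1356 CPM (1329 to 1383) in 395 fibroblasts, at 1303 CPM (1218 to 1391) in 42 pericytes and at 1252 CPM (1148 to 1362) in 98 neutrophils. The interval of T and NK cells lay above that of fibroblasts, and the intervals of fibroblasts, pericytes and neutrophils overlap.

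Lower levels were found in the remaining classes. The sum was 1075 CPM (931 to 1234) in 15 dendritic cells and 1020 CPM (922 to 1126) in 16 mesothelial cells, then 901 CPM (843 to 963) in 101 endothelial cells and 875 CPM (833 to 918) in 127 monocytes. Each of these intervals overlaps that of the class before it, from neutrophils to monocytes. In 707 macrophages it was 801 CPM (783 to 819) and in 78 erythroid cells 570.5 CPM (503 to 645). The mesothelial class held 16628 CPM of fibroblast markers beside 626 CPM of mesothelial markers, and how pure it is was not tested. The 1392 keratin-low barcodes of KPCA.FSTKO without a name stood at 2268 CPM, nearer to cancer cells than to any named class of this library.

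In KPCA.FSTKO_hFSTL3 fewer barcodes met the rule of a host class. Barcodes with keratins at or over the limit and a Ptprc UMI belonged to no class. With such barcodes kept, the cancer gate held 3516 in place of 2274 in this library, and 3720 in place of 3589 in KPCA.FSTKO. Their part in the number of host cells was not tested. In KPCA.FSTKO_hFSTL3 the sum was 1133 CPM (1078 to 1189) in 62 fibroblasts and 713 CPM (677 to 751) in 116 macrophages. It was 1086 CPM in 30 monocytes, 1005 CPM in 20 endothelial cells, 1003 CPM in 11 pericytes, 919.9 CPM in 16 T and NK cells and 174 CPM in 14 erythroid cells, the last from 11 UMIs. These small classes also held RNA of other cells. The pooled T and NK class had 3042 CPM of macrophage markers beside 1535 CPM of its own. The monocyte class had 6232 CPM of macrophage markers beside 4332 CPM of its own. The part of such RNA in these levels was not tested. In both libraries the fibroblasts stood above the macrophages. The 249 keratin-low barcodes of KPCA.FSTKO_hFSTL3 without a name had a median of 1256 UMIs and stood at 1299 CPM (1238 to 1362). Unlike those of KPCA.FSTKO, they lay nearer to fibroblasts than to cancer cells (2310 CPM).

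Single members did not all follow the order of the sum. Gas5 had 1013 CPM in cancer cells of KPCA.FSTKO, 582 in fibroblasts, 559 in T and NK cells, 425 in neutrophils, 371 in endothelial cells, 310 in monocytes and 273 in macrophages. 2410006H16Rik had 511 CPM in cancer cells, 372 in neutrophils, 368 in T and NK cells, 356 in pericytes, 299 in fibroblasts and 172 in macrophages. 1110038B12Rik, in contrast to the sum, was low in T and NK cells, at 52.8 CPM, and reached 136 CPM in fibroblasts and 139 in mesothelial cells, beside 269 in cancer cells. Epb41l4aos was as high in T and NK cells (69.2 CPM) as in cancer cells (68.6 CPM), with 60.3 CPM in pericytes and 45.4 in macrophages.

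Set against macrophages, cancer cells of KPCA.FSTKO had 3.14 times the summed level (3.07 to 3.22), and 8 of 8 members were at least 1.5-fold higher, where 43.4% of 13241 genes were higher and 22.6% lower. Snhg1 had the widest gap, 164 against 39.4 CPM, a ratio of 4.17 (3.76 to 4.63), and Gas5 followed at 3.71 (3.56 to 3.85). Epb41l4aos had the narrowest, 68.6 against 45.4 CPM, a ratio of 1.51 (1.37 to 1.67). The median log2 ratio of the members was 1.49 beside 0.39 over all genes. Of 13 further non-coding hosts 12 were also at least 1.5-fold higher in cancer cells, of 8 snoRNA particle proteins 7, and of 79 ribosomal protein genes 47.

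Against fibroblasts the gap was smaller. The sum was 1.86 times higher in cancer cells (1.82 to 1.90), and 7 of 8 members were at least 1.5-fold higher, where 26.4% of 13085 genes were higher and 23.4% lower. The exception was Epb41l4aos, at a ratio of 1.42 (1.28 to 1.59). Snhg1 had 164 against 65.5 CPM, a ratio of 2.51 (2.29 to 2.75), and Snhg8 178 against 73.5 CPM, a ratio of 2.42 (2.22 to 2.64). The median log2 ratio of the members was 1.01 beside 0.09 over all genes.

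The gap to host cells was also present in the other library. Over its whole gate the sum in cancer cells was 3.24 times that in macrophages (3.08 to 3.41) and 2.04 times that in fibroblasts. Low-acinar cancer cells had 3.58 times the level of low-acinar macrophages (3.39 to 3.79), and 8 of 8 members were at least 1.5-fold higher, where 37.8% of 9016 genes were higher and 24.6% lower. 2410006H16Rik had 599 against 138 CPM in that comparison, a ratio of 4.35 (3.84 to 4.93), and Snhg8 186 against 42.0 CPM, a ratio of 4.44 (3.55 to 5.62). As the members were chosen for standing high among cancer cells, these counts describe the gap and do not test it.

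**Figure D5:**
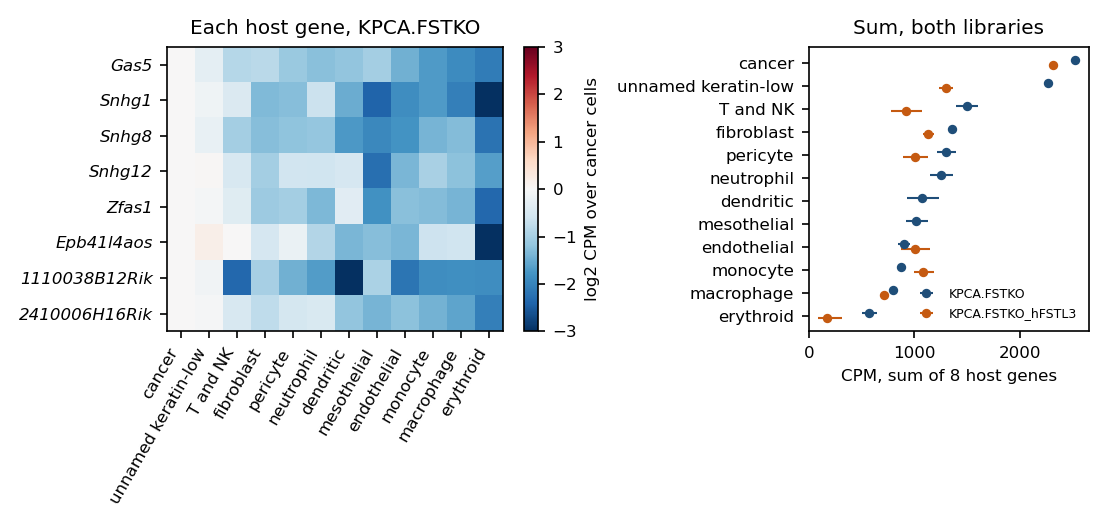
Left, log2 of the CPM of each host gene in each class over its CPM in cancer cells of KPCA.FSTKO, with the colour scale clipped at both ends. Right, summed CPM of the 8 genes by class in both libraries, with 95% counting intervals as bars; cancer cells (2520 and 2310 CPM) lie above every named host class.

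The genes also varied together among macrophages and fibroblasts of KPCA.FSTKO, with lower ratios and correlations than among cancer cells. The sum was sparser there, with a median of 4 UMIs per thinned macrophage and 5 per fibroblast, against 9 per cancer cell. Fewer UMIs lower both measures by their construction. In KPCA.FSTKO cancer cells the mean pair correlation was 0.187 over 3129 cells thinned to 2000 UMIs, against 0.277 over 2887 cells at 5000. The first set also took in cells under 5000 UMIs, so this drop is not one of depth alone. With sparser sums, whether the members co-vary less in these host cells cannot be read from their ratios and correlations. With macrophages of enough depth split in 4 groups by the other 7 genes, the pooled ratio of top to bottom was 2.36, with members from 1.72 to 3.29, where 2.94% of genes outside the list were at least 1.5-fold higher. Among fibroblasts it was 3.44, from 2.13 to 4.51, where 20.5% of genes were. The same split of cancer cells gave 4.79 and that of the unnamed keratin-low barcodes 10.7. From the bottom to the top group of those keratin-low barcodes the acinar UMIs per 5000 went from 13.5 to 0.211, the median mitochondrial share from 10.6% to 3.61% and the median UMI number from 10727 to 22194, and their part in that ratio was not tested. Ribosomal protein genes were at least 1.5-fold higher in the top group in 22 of 78 cases among macrophages (median ratio 1.44) and in 77 of 78 among fibroblasts (median 2.43). The mean correlation of member pairs was 0.107 among macrophages, 0.144 among fibroblasts and 0.405 among keratin-low barcodes.

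Detection of single UMIs followed the levels. At 5000 UMIs per cell, Gas5 had a UMI in 89.0% of KPCA.FSTKO cancer cells and in 70.8% of macrophages, and Epb41l4aos in 26.7% and 19.2%. Every reported class of KPCA.FSTKO had UMIs of all 8 genes, and no class known to lack them was at hand to give the share that free RNA brings. In KPCA.FSTKO_hFSTL3, 14 erythroid cells had 0 UMIs of Epb41l4aos among 63263, with an interval that reaches 58.3 CPM.

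On both sides of the keratin limit the level was close in KPCA.FSTKO. Barcodes of that library just inside it, at 0.1 to 0.2% keratin UMIs, had 2581 CPM of the sum in 1250 cells, and those just outside, at 0.05 to 0.1%, had 2465 CPM in 670 cells. In KPCA.FSTKO_hFSTL3 the values were 2369 CPM in 486 cells inside and 1529 CPM in 76 cells outside, where the outer barcodes had a median of only 2138.5 UMIs against 4303 inside.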

How the data were processed

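Omental tumors of each group were dissociated and measured by droplet single-cell RNA sequencing with a 10x Genomics 3′ kit, 1 library per group. The authors deposited raw UMI counts per gene and barcode, made with Cell Ranger (3.1.0 in the submitters' processing notes, 7.2.0 in the matrix header) against mm10. Whether intronic reads were counted is not given in the sources used here. This matters for genes read through introns and cannot be undone.

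Barcodes were retained when under 20% of their UMIs were mitochondrial and they had over 200 but under 8000 genes. Doublets were not removed, as no such step is described. Cells were gated as cancer by keratins and Ptprc; host classes needed at least 3 markers with a UMI and 3-fold enrichment, a rule set after seeing the data, and classes under 10 cells were not reported. UMIs were summed per class, with exact Poisson intervals for levels and exact conditional binomial intervals for ratios (95%). Spread was measured in cells thinned to 5000 UMIs (seed 1), which left out 702 KPCA.FSTKO and 688 KPCA.FSTKO_hFSTL3 cancer cells below that depth. Genes entered a ratio between classes at 100 UMIs or more and were counted as changed at 1.5-fold. Genes entered the variance comparison at 0.25 UMIs or more per thinned cell.

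The named genes were the 8 members, the genes most like them (the first 10, of which 1 is not reported here), and members of 8 lists. The members and lists were chosen with earlier results of these data known. The split at 0.3% acinar UMIs, over 17 acinar genes, was added after seeing the data. Sequences and snoRNA positions came from RefSeq (GRCm38.p6) and GENCODE vM21 (GRCm38). Calculations used pandas 2.3.3, SciPy 1.17.1 and NumPy 2.4.6 in Python 3.11.15, plots Matplotlib 3.10.9, and the scripts were tested on simulated data.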

Additional observations from a re-analysis of the deposited data

How the results depend on the processing

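No paired analysis was possible because each group is 1 library, and for the same reason no replicate could be left out. Of 76 alternative values of the main results 40 stayed within their counting interval or within 1.5 times the count and 36 moved; of 112 for single members 55 stayed and 57 moved. No value past 1.5-fold changed direction. The summed level in KPCA.FSTKO was 2495 CPM with the keratin share set to 0.2%. The ratio of the sum between libraries, 0.917, became 0.897 with Ptprc-positive barcodes kept, 0.961 with under 10% mitochondrial UMIs, 0.931 with no filter on barcodes, 0.907 without the top 5% of cells by UMIs, 0.943 without cells over 1% acinar UMIs, 0.985 with cells under 0.3% only, 0.892 with KPCA.FSTKO_hFSTL3 cells at or over 0.3% only, 0.986 with totals free of mitochondrial, hemoglobin and acinar UMIs, 1.04 with the median log2 ratio of all genes set to 0, which turns its direction (interval 1.03 to 1.05), and 0.989 as a mean over cells. The count of members past 1.5-fold, 0, became 1 at a keratin share of 0.05%, with Ptprc-positive barcodes kept, without the top 5% and in cells at or over 0.3% acinar UMIs (each time 1110038B12Rik, at 0.663, 0.625, 0.606 and 0.583), and 1 with the median set to 0 (Snhg1, at 1.57). In KPCA.FSTKO_hFSTL3 the sum in cancer cells over fibroblasts became 2.15 with under 10% mitochondrial UMIs and 2.17 under 0.3% acinar UMIs, and over macrophages 3.58 under 0.3%. The pooled ratio of members between extreme groups of cells in KPCA.FSTKO, 7.97, became 6.93 when thinned to 2000 UMIs, 10.2 without thinning, 4.79 in 4 groups, 7.47 under 10% mitochondrial UMIs, 8.99 and 7.32 at keratin shares of 0.05% and 0.2%, and 4.41 in the middle 50% by ribosomal protein share. In KPCA.FSTKO_hFSTL3, where it was 2.05, the values in the same order were 1.75, 2.53, 1.45 and 7.56 (484 cells in the last), then 1.56 without the top 5% of cells, 2.88 without cells over 1% acinar UMIs, 6.88 under 0.3%, 1.10 at or over 0.3%, 1.15 in the middle 50% by ribosomal protein share and 1.57 in the middle 50% by Malat1 share. The setting of 2000 UMIs also took in shallower cells, 3129 in place of 2887 in KPCA.FSTKO and 1938 in place of 1586 in KPCA.FSTKO_hFSTL3. Fewer groups or fewer UMIs lower such a ratio by their construction. A narrower set of cells did not always do so: in KPCA.FSTKO the middle 50% by Malat1 share stayed close to 7.97, while that by ribosomal protein share gave 4.41. For every setting that narrows the cells, those on mitochondrial and acinar UMIs among them, the cause was not tested. Depth limits the rarer genes, of which Epb41l4aos had a mean of 0.348 UMIs per thinned KPCA.FSTKO cell.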
